A study of Homo sapiens with 6 samples.

Results

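The integrated stress response and its amino acid supply genes were followed in HEK293 cells, a human embryonic kidney line, labelled WT or MUL1(−/−). MUL1 is an E3 ubiquitin ligase of the outer mitochondrial membrane, and the study asked how its loss altered metabolism and gene expression. RNA was sequenced from 3 libraries labelled WT and 3 labelled MUL1(−/−) and grown without further treatment in DMEM with fetal calf serum, L-glutamine and antibiotics. MUL1 had been inactivated with CRISPR-Cas9, and how many clones the sequenced cells came from is not given in the sources used here, so effects of a clone and of the genotype cannot be told apart. The labels do not say that replicates were separate cultures, and p-values then measure only the spread between these libraries, which may be technical.

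The genes were chosen by name from knowledge of the pathway, with earlier results of these data known. They numbered 37 of the 57116 genes that the count tables cover, and all 37 were among the 25118 genes with enough counts to be tested. By role they comprised 7 transcription factors, 6 genes of eIF2 kinases and translation control, 6 stress-induced effectors, 3 amino acid synthesis enzymes, 9 amino acid transporters and 6 genes of tRNA charging and export.

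In this pathway, kinases that sense different stresses phosphorylate the translation initiation factor eIF2, which lowers protein synthesis in general while the transcription factor ATF4 is translated more. ATF4, with partners of the ATF and C/EBP families, then activates genes that import and make amino acids and charge tRNAs, along with stress effectors such as DDIT3 (CHOP). Mitochondrial dysfunction and amino acid shortage are both well known triggers. Because ATF4 is largely controlled at translation and eIF2 at phosphorylation, the RNA levels given here do not measure the activity of either protein.

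ATF4 and its partners bind composite sites called C/EBP-ATF response elements, whose core was searched as TGATGNAA on either strand of RefSeq promoter windows (GRCh38.p14, 250 bases before to 50 after the start). The core was found in 12 of the 32 genes with an entry (37.5%), against 4.46% of 27305 genes in the table. Counted by windows, it was in 12 of 52 (23.1%) against 3.62% of 35116. The genes were chosen by name from knowledge of this pathway, in which ATF4 binds such sites. A higher share than over all genes was therefore favoured by the choice and is not a result of these data. NUPR1, EIF2AK1, EIF4EBP1, SLC7A11 and SLC7A3 had no entry. The sites of the 7 genes that also passed the expression test are printed because the same core stood beside genes that moved in opposite directions. Each line gives 30 bases of the gene's own strand from 5′ to 3′, with the core in capitals.
ASNS (chr7:97872458-97872487, minus strand, lower in MUL1(−/−)): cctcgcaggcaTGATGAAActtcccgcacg
AARS1 (chr16:70289675-70289704, minus strand, lower): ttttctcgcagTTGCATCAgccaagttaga
JDP2 (chr14:75427995-75428024, plus strand, lower): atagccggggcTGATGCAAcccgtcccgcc
CARS1 (chr11:3057407-3057436, minus strand, higher): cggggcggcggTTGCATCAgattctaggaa
SLC3A2 (chr11:62881719-62881748, plus strand, higher): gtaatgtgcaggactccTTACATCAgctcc
SLC1A4 (chr2:64989381-64989410, plus strand, higher): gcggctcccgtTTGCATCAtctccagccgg
ATF3 (chr1:212565205-212565234, plus strand, higher): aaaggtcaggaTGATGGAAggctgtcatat
The core read on the gene's strand in ASNS, JDP2 and ATF3 and on the opposite strand in AARS1, CARS1, SLC3A2 and SLC1A4. It began 68 bases before the start in ASNS, at position -187 in AARS1, -16 in JDP2, -2 in CARS1, -7 in SLC1A4, -191 in ATF3 and 38 in SLC3A2. The other 5 genes with the core, CHAC1, GARS1, HERPUD1, SLC7A1 and SLC1A5, did not pass the test. A match is a description of these letters and does not show that a factor was bound. No core was in the windows searched for ATF4, ATF5, DDIT3, EIF2AK3, PPP1R15A, SESN2, VLDLR, STC2, GDF15, SLC7A5, SLC38A2, SLC6A9, EPRS1 or XPOT, which passed. Nor was it in those of TRIB3, EIF2AK4, EIF2S1, CTH, CBS or WARS1, which did not pass.

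MUL1 itself was counted at 15.5, 15.3 and 19.1 CPM (counts scaled to the size of the library) in WT replicates 1 to 3 and at 18.8, 16.8 and 19.3 CPM in MUL1(−/−) replicates 1 to 3. The 2 genotypes overlapped, and the log2 fold change was 0.14 (SE 0.10, edgeR adjusted p = 0.321), or 0.24 without WT replicate 3 (adjusted p = 0.0528), so the count of this gene did not check the labels. All fold changes below are MUL1(−/−) over WT, on TMM-scaled CPM of counts summed over a gene's exon bins. Those sums were 126187496 to 141904933 per library in WT and 121294945 to 121778266 in MUL1(−/−). A read was counted in every bin that it touched, so these totals exceed the number of reads. The 7 HEK293 markers were all detected, summing to 1225 to 1396 CPM in WT and 859 to 1008 CPM in MUL1(−/−), and 4 of them fell while 1 rose. Summed markers of leukocytes (0.889 to 1.35 CPM against 1.87 to 2.36), erythroid cells (0.718 to 0.958 against 0.674 to 1.06) and endothelial cells (0.303 to 0.498 against 0.771 to 0.962) were low in both genotypes. Fibroblast markers summed to 24.4 to 32.6 CPM in WT and 21.0 to 26.8 CPM in MUL1(−/−). The leukocyte gene CD3E was at or under 3 counts in all 6 libraries. The part of other cell types in the results was not tested, and in bulk RNA fewer cells of a type and less RNA per cell cannot be told apart.

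The third WT library stood apart in these genes. It held the lowest WT value of 32 of the 37 genes (86.5%), whereas it was the lowest WT library for 38.6% of all genes tested. WT replicate 1 was the highest WT library for 30 of the 37, and for 38.2% of all genes tested. Against the mean log2 value of the other 2 WT libraries, the median gene of the 37 was shifted by -0.28 in WT replicate 3. The shift was 0.18 in replicate 1 and 0.11 in replicate 2, while the median over all genes was shifted by 0.02 or less in each. Taken in the same way among the MUL1(−/−) libraries, the shifts of the median gene were -0.06, 0.05 and 0.00. In counts of each gene's most counted bin, WT replicate 3 also differed more from the other WT libraries than those did from each other. The chi-square per degree of freedom was 9.38 and 10.8, against 2.93. MUL1(−/−) replicate 3 also stood off from the others of its genotype (8.65 and 10.2). The contrast was smaller there, as those others differed more from each other (5.33). Values without WT replicate 3 are therefore given for those of the 37 genes whose call it changed. They are also given where it moved the log2 fold change by over 1.5 times, and the plot of fold changes shows them for 36 genes.

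**Figure D1:**
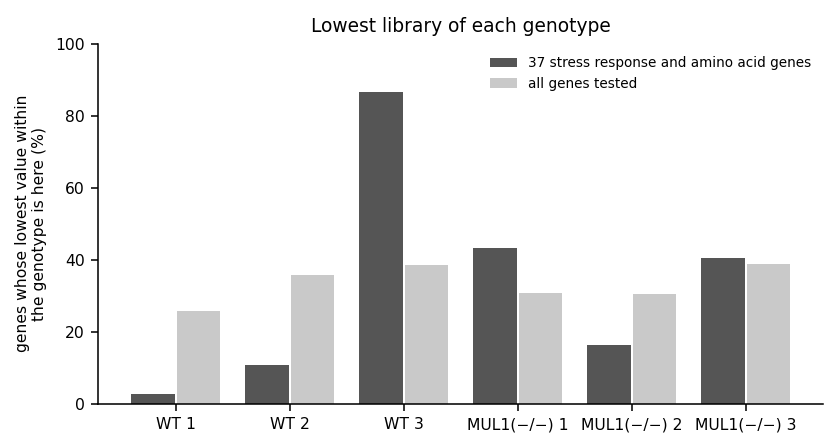
Percent of genes (y axis) whose lowest value within a genotype was in the library named on the x axis, for the 37 genes (dark bars) and for all 25118 genes tested (light bars). WT 3 was the lowest WT library for 86.5% of the 37 genes and for 38.6% of all genes.

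Of the 37 genes, 11 were higher and 13 lower in MUL1(−/−) at an edgeR adjusted p under 0.05, and 13 did not pass. Over all genes tested, 18.8% were higher and 18.7% lower. The calls were divided between the directions. Their median log2 fold change was 0.01 (all genes, -0.01) and the median of its absolute value was 0.31 (all genes, 0.29). Past an absolute log2 fold change of 1 there was 1 gene higher, SLC7A5, against a background of 4.24%, and 2 lower, GDF15 and SLC7A3, against 3.87%. The values of the 2 genotypes did not overlap in 23 of the 37, against 48.4% of all genes. By role, stress-induced effectors had 0 higher and 4 lower of 6, and eIF2 kinases and translation control had 3 higher and 0 lower of 6. The transcription factors (3 higher, 3 lower), the transporters (4 higher, 2 lower) and the tRNA genes (1 higher, 3 lower) were mixed. Without WT replicate 3 the counts were 8 higher and 15 lower, which included all 13 of the lower genes and 8 of the 11 higher ones. With library totals in place of TMM factors, 14 were higher and 11 lower.

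**Figure D2:**
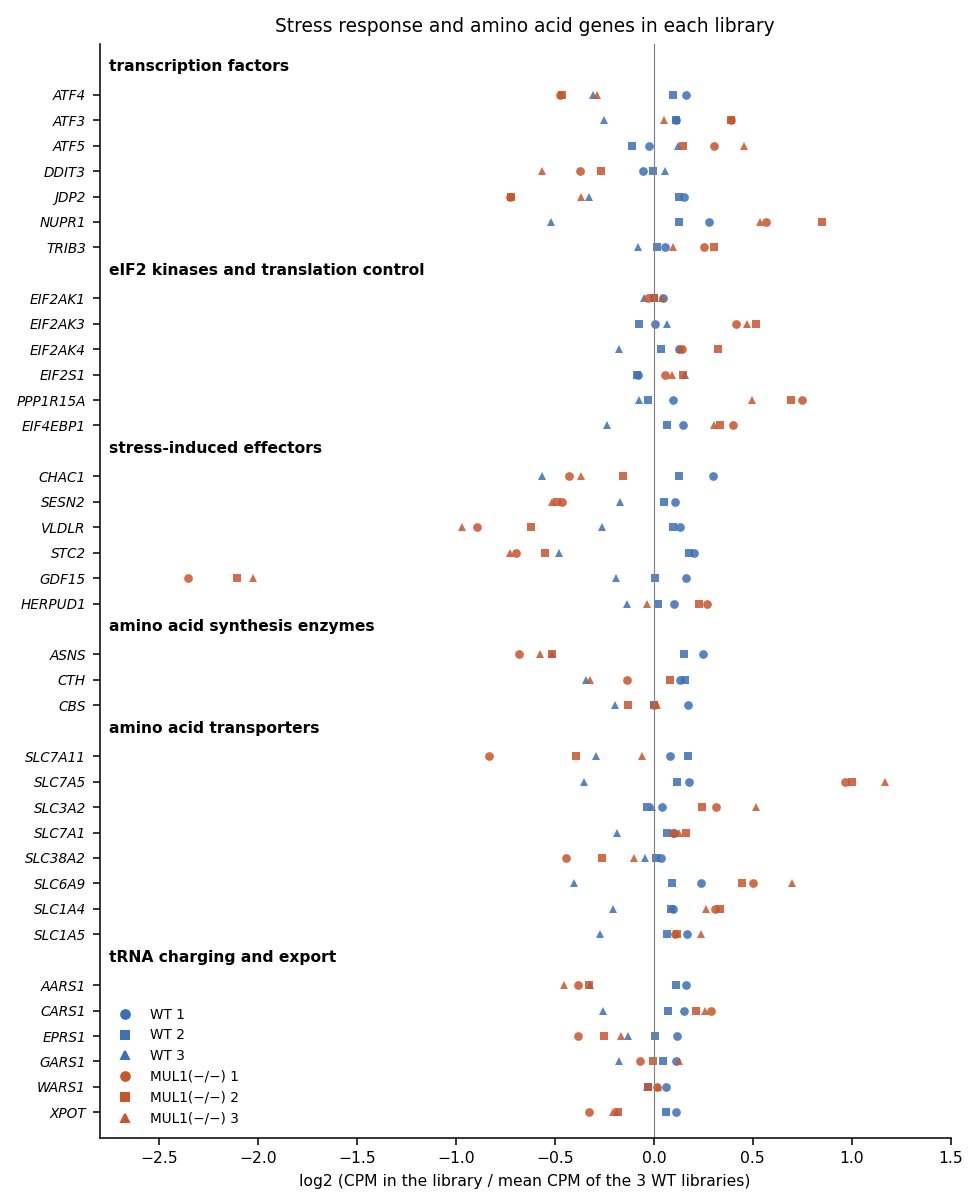
Each row is a gene, grouped by role, and each point a library, placed by its CPM relative to the mean of the 3 WT libraries on a log2 axis (blue, WT; orange, MUL1(−/−); circle, square and triangle, replicates 1, 2 and 3). GDF15 and SLC7A5 separate by genotype while the blue triangles of WT 3 lie left of the other WT points in most rows; SLC7A3 is off the scale and not drawn.

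Compared per kilobase of exon bins, ATF4 had the highest level of the 37 genes in both genotypes, at 151 ± 25.3 CPM per kb in WT and 114 ± 8.58 in MUL1(−/−) (SD, n = 3). In WT it was followed by ASNS at 83.7 ± 22.0, SLC1A5 at 79.4 ± 12.1, EIF4EBP1 at 64.5 ± 8.74, AARS1 at 64.3 ± 11.2 and EPRS1 at 63.6 ± 5.42 CPM per kb. ASNS and SLC1A5 differed by less than their SDs, as did EIF4EBP1, AARS1 and EPRS1 among themselves, while SLC1A5 and EIF4EBP1 differed by more. In MUL1(−/−) the order after ATF4 was SLC1A5 at 88.4 ± 4.43, EIF4EBP1 at 82.0 ± 2.75 and ASNS at 55.6 ± 3.18 CPM per kb, each apart from the next by more than their SDs. The lowest levels in WT were those of SLC7A3 (0.590 ± 0.115), JDP2 (0.740 ± 0.131) and CBS (0.842 ± 0.108 CPM per kb), of which JDP2 and CBS differed by less than their SDs. Summed bins count a spanning read more than once, so this scale can raise genes cut into many short bins. ASNS had 46 bins over 4.455 kb, SLC1A5 19 over 3.332 kb, ATF4 7 over 2.514 kb and EIF4EBP1 4 over 1.073 kb. Shared bins held 95.8% of the ASNS counts. The SDs cover neither effect, so the order of transcript levels between genes remains uncertain.

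Transcripts of ATF4 itself, the central activator, were lower in MUL1(−/−). ATF4 (chromosome 22, 39519695 to 39522685 on GRCh38) was counted at 426, 406 and 307 CPM in WT and at 274, 275 and 312 CPM in MUL1(−/−). WT replicate 3 lay with the MUL1(−/−) libraries, just under the highest of them, so the groups overlapped. ATF4 fell by 0.40 on the log2 scale (SE 0.10, adjusted p = 0.00532), or by 0.54 (adjusted p = 6.02e-05) without WT replicate 3. Of its 6 measured exon bins (a mean of at least 20 counts), 5 were lower in MUL1(−/−).

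DDIT3, which encodes the proapoptotic factor CHOP, was at 36.3, 37.6 and 39.2 CPM in WT and at 29.1, 31.3 and 25.5 CPM in MUL1(−/−). All 3 MUL1(−/−) libraries were under all WT libraries, and WT replicate 3 was here the highest of the 6. DDIT3 fell by 0.40 on the log2 scale (SE 0.08, adjusted p = 0.00177). Bins shared with other genes held 72.9% of its counts, those shared with MARS on the opposite strand 51.0%, and strand was not used in counting. In the bins it did not share the log2 fold change was -0.44 (SE 0.12, adjusted p = 0.0101).

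JDP2, a basic leucine zipper repressor, was at 5.12, 5.04 and 3.67 CPM in WT and at 2.79, 2.80 and 3.58 CPM in MUL1(−/−). The third library of each genotype was close to the other genotype, but the groups did not overlap. JDP2 fell by 0.59 on the log2 scale (SE 0.15, adjusted p = 0.00547), or by 0.74 without WT replicate 3.

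The other 3 transcription factors that passed were higher. NUPR1, a small stress-induced chromatin protein, was at 6.83, 6.14 and 3.93 CPM in WT and at 8.33, 10.2 and 8.16 CPM in MUL1(−/−). Every MUL1(−/−) library was above every WT library, and the log2 fold change was 0.66 (SE 0.16, adjusted p = 0.00523), or 0.45 without WT replicate 3. ATF5, which acts in the mitochondrial unfolded protein response, was at 20.8, 19.5 and 23.0 CPM against 26.1, 23.4 and 28.97 CPM. The groups were narrowly separate, and the log2 fold change was 0.31 (SE 0.09, adjusted p = 0.0175). ATF5 no longer passed without WT replicate 1 (adjusted p = 0.068), WT replicate 2 (0.102) or MUL1(−/−) replicate 3 (0.0603), and other genes, mostly NUP62 and IL4I1 on the other strand, touched the bins with 50.4% of its counts.

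ATF3, a stress-induced member of the same family, was at 43.2, 43.2 and 33.6 CPM in WT and at 52.5, 52.5 and 41.5 CPM in MUL1(−/−). The third library was the low one in each genotype and the groups overlapped. ATF3 rose by 0.29 on the log2 scale (SE 0.11, adjusted p = 0.0487). The call was lost without WT replicate 3 (0.17, adjusted p = 0.191), WT replicate 1 (0.0532), WT replicate 2 (0.053), MUL1(−/−) replicate 1 (0.156) or MUL1(−/−) replicate 2 (0.147), and with limma-voom (0.0537). The 20 tested genes nearest to ATF3 on its chromosome had a median log2 fold change of 0.60, and those nearest to ATF5 0.37, so neither exceeded its neighbours.

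TRIB3, a pseudokinase that feeds back on ATF4 and CHOP, was at 19.5, 19.0 and 17.7 CPM in WT and at 22.3, 23.1 and 20.01 CPM in MUL1(−/−). The groups did not overlap, but the value of 0.22 on the log2 scale (SE 0.09) missed the threshold (adjusted p = 0.0567). It passed in 8 of the 15 alternative fits, among them those without MUL1(−/−) replicate 3 (adjusted p = 0.0157), with library totals (0.0136) and with DESeq2 (0.0447).

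**Figure D3:**
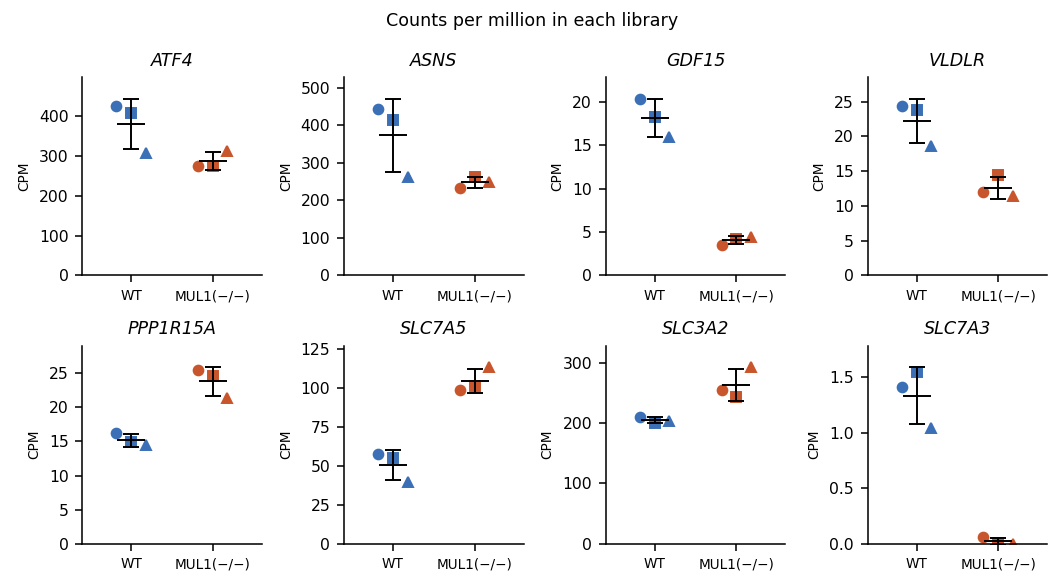
CPM (y axis, from 0) in each library for 8 genes, with WT at left and MUL1(−/−) at right (circle, square and triangle, replicates 1, 2 and 3); black bars are the mean and the SD of 3 libraries. GDF15, VLDLR and SLC7A3 are lower and SLC7A5, SLC3A2 and PPP1R15A higher in all 3 MUL1(−/−) libraries, while in ATF4 and ASNS the WT 3 triangle lies at the level of the MUL1(−/−) points.

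Of the eIF2 kinases, 3 were members, and 1 of them passed the test. EIF2AK3 (PERK), the kinase of the endoplasmic reticulum, was at 11.3, 10.7 and 11.8 CPM in WT and at 15, 16.1 and 15.6 CPM in MUL1(−/−). The genotypes were clearly apart, and the log2 fold change was 0.47 (SE 0.09, adjusted p = 6.28e-04), and all 24 measured bins were higher. The 20 neighbouring genes of EIF2AK3 had a median of 0.36.

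EIF2AK4 (GCN2), which senses uncharged tRNA, was at 93.5, 87.9 and 75.8 CPM against 94.5, 107 and 94.0 CPM. Its groups were separate by a small margin, and the log2 fold change of 0.20 (SE 0.08) did not pass (adjusted p = 0.0753), although it did without WT replicate 1 (0.0466) or MUL1(−/−) replicate 3 (0.0481), with library totals (0.0141), with no filter on low counts (0.0184) and with at least 1 CPM in 3 samples (0.0457). EIF2AK4 was at 0.12 without WT replicate 3 (adjusted p = 0.276). EIF2AK1 (HRI), which relays heme shortage and mitochondrial stress, was at 187, 181 and 175 CPM against 177, 181 and 187 CPM. Its ranges nearly coincided, and the log2 fold change was 0.01 (SE 0.06, adjusted p = 0.957), or -0.02 without WT replicate 3.

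EIF2S1, the eIF2 subunit that the kinases phosphorylate, was at 108 ± 10.7 CPM in WT and 116 ± 3.78 CPM in MUL1(−/−), with overlapping groups (log2 fold change 0.10, SE 0.08, adjusted p = 0.339). Without WT replicate 3, its highest library, the value was 0.18 (adjusted p = 0.0536).

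Both feedback regulators of translation were higher. PPP1R15A (GADD34), the inducible phosphatase subunit that dephosphorylates eIF2, was at 16.3, 14.9 and 14.5 CPM in WT and at 25.5, 24.6 and 21.4 CPM in MUL1(−/−). Its lowest MUL1(−/−) library was well above its highest WT library, and it rose by 0.65 on the log2 scale (SE 0.09, adjusted p = 5.21e-05). EIF4EBP1, an inhibitor of cap-dependent initiation that ATF4 can activate, was at 76.6, 72.5 and 58.7 CPM against 91.2, 87.2 and 85.5 CPM. WT replicate 3 was the low library and the groups did not overlap, and the log2 fold change was 0.35 (SE 0.09, adjusted p = 0.0063), or 0.24 without WT replicate 3. The median of the neighbouring genes was 0.40 for PPP1R15A and 0.50 for EIF4EBP1, so EIF4EBP1 lay under its neighbours.

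The effectors downstream fell or did not pass. GDF15 (chromosome 19, 18374731 to 18389176), a secreted cytokine used as a marker of mitochondrial stress, had the largest drop of the well-counted members. It was at 20.4, 18.3 and 16.0 CPM in WT and at 3.55, 4.22 and 4.46 CPM in MUL1(−/−). The genotypes were far apart in every library, 4.46-fold in the means, and the log2 fold change was -2.16 (SE 0.12, adjusted p = 3.95e-09). All 5 measured bins lay between -2.21 and -2.14, and its 20 neighbours had a median of -0.30.

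VLDLR, the very low density lipoprotein receptor and an ATF4 target, was at 24.4, 23.8 and 18.6 CPM in WT and at 11.98, 14.4 and 11.4 CPM in MUL1(−/−). No library of 1 genotype reached the other, and the log2 fold change was -0.82 (SE 0.12, adjusted p = 5.84e-05). All 23 measured bins were lower, and in the bins not shared with VLDLR-AS1 the log2 fold change was -0.80.

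STC2, a secreted glycoprotein of the stress response, was at 76.0, 74.7 and 47.4 CPM in WT and at 40.8, 45.1 and 40.0 CPM in MUL1(−/−). WT replicate 3 was close to the MUL1(−/−) libraries without overlapping them. STC2 fell by 0.65 on the log2 scale (SE 0.13, adjusted p = 0.00125), or by 0.85 without that library.

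SESN2, a leucine sensor that restrains mTORC1, was at 41.2, 39.6 and 33.9 CPM against 27.7, 27.2 and 26.7 CPM. Its MUL1(−/−) libraries were tightly grouped under all WT libraries, and the log2 fold change was -0.49 (SE 0.08, adjusted p = 2.84e-04). The median of the genes around SESN2 was -0.45, nearly its own value.

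CHAC1, which degrades glutathione, was at 7.83, 6.96 and 4.31 CPM in WT and at 4.74, 5.71 and 4.94 CPM in MUL1(−/−). WT replicate 3 was the lowest of all 6 libraries, and the log2 fold change of -0.31 (SE 0.17) did not pass (adjusted p = 0.171). Without that library it was -0.53 and passed (adjusted p = 0.00306). HERPUD1, a component of endoplasmic reticulum-associated degradation, was at 47.5 ± 3.97 CPM in WT and 53.1 ± 5.82 CPM in MUL1(−/−). Its groups overlapped, and the log2 fold change was 0.16 (SE 0.09, adjusted p = 0.179), and of the alternative fits it passed in the 1 without MUL1(−/−) replicate 3 (0.0233). HERPUD1 was at 0.09 without WT replicate 3.

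Of the synthesis enzymes, ASNS (chromosome 7, 97852118 to 97872542), asparagine synthetase and the classic ATF4 target, was lower. It was at 444, 414 and 261.2 CPM in WT and at 233, 260.9 and 250 CPM in MUL1(−/−). WT replicates 1 and 2 stood far above the rest, and WT replicate 3 was level with the highest MUL1(−/−) library. The log2 fold change was -0.59 (SE 0.14, adjusted p = 0.00334), and -0.79 (adjusted p = 1.49e-06) without WT replicate 3. The overlapping GENCODE 29 gene AC079781.5, which has no part in the identifier these bins carry, touched bins that held 95.8% of the ASNS counts on the same strand. In the few bins that were its own, ASNS was at 22.2, 21.7 and 10.4 CPM in WT and at 7.24, 9.03 and 8.08 CPM in MUL1(−/−). There the genotypes were more distinct, and the log2 fold change was -1.15 (SE 0.21, adjusted p = 4.44e-04). The 20 neighbours of ASNS had a median of -0.39.

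CTH and CBS, the enzymes that make cysteine from homocysteine, did not pass. CTH was at 18.7 ± 3.44 CPM in WT and 17.3 ± 2.46 CPM in MUL1(−/−), and the log2 fold change was -0.12 (SE 0.13, adjusted p = 0.523), or -0.27 without WT replicate 3. CBS was at 5.71 ± 0.731 and 5.57 ± 0.310 CPM, and the log2 fold change was -0.04 (SE 0.12, adjusted p = 0.837), or -0.13 without WT replicate 3. Both pairs of groups overlapped.

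**Figure D4:**
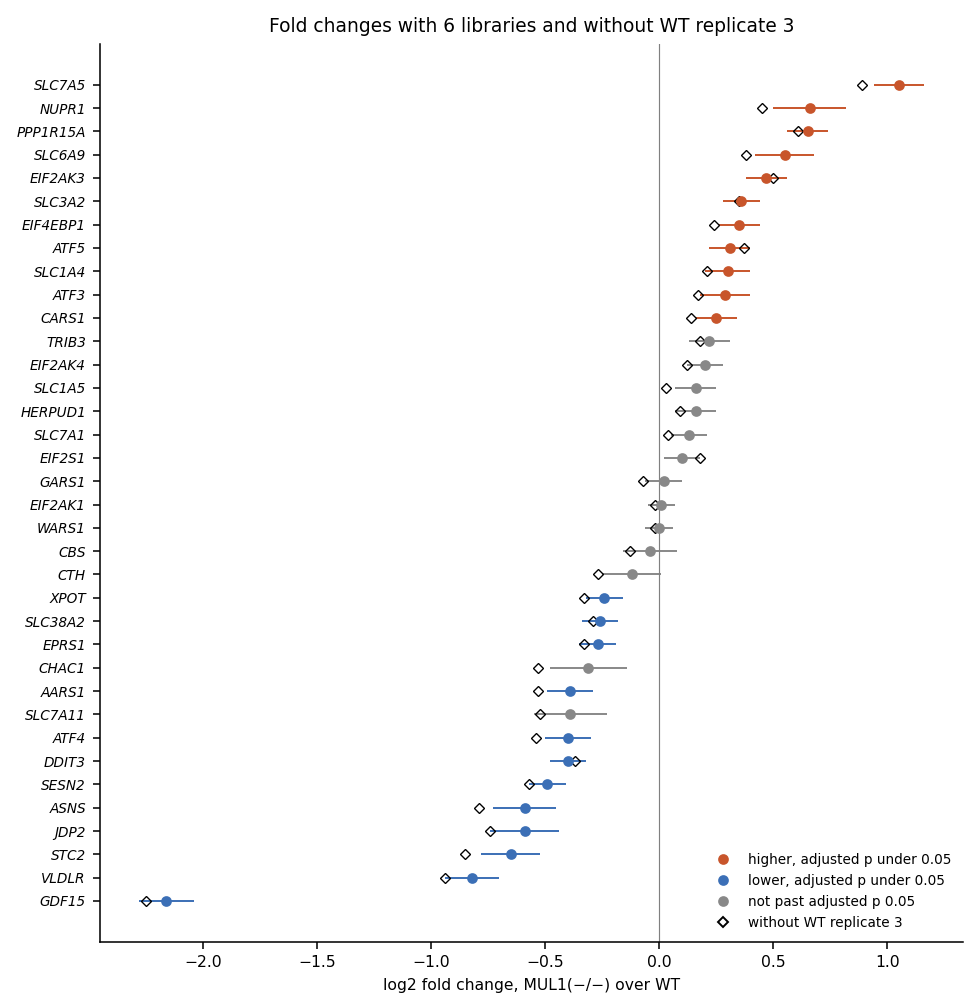
The log2 fold change of MUL1(−/−) over WT (x axis) for 36 genes with all 6 libraries (filled points, bars of 1 SE; orange, higher and blue, lower at adjusted p under 0.05; grey, not passed) and without WT replicate 3 (open diamonds). Most diamonds lie left of their points, as for ATF4 (-0.40 and -0.54), ASNS (-0.59 and -0.79) and SLC7A5 (1.05 and 0.89); SLC7A3 at -5.90 is not drawn.

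The transporters held the largest changes in both directions. SLC7A5 (LAT1; chromosome 16, 87830023 to 87869488), which imports leucine and other large neutral amino acids, was at 57.4, 55.1 and 39.8 CPM in WT and at 99.2, 101 and 114 CPM in MUL1(−/−). Every MUL1(−/−) library was far above every WT library, 2.06-fold in the means, and the log2 fold change was 1.05 (SE 0.11, adjusted p = 4.22e-06). Without WT replicate 3 it was 0.89, still past the test (adjusted p = 1.59e-06) but no longer past 1, and it was 0.98 without MUL1(−/−) replicate 3. All 11 measured bins were higher, from 0.89 to 1.19, and the 20 neighbours of SLC7A5 had a median of 0.09.

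SLC3A2 (4F2hc), the heavy chain that pairs with SLC7A5 and SLC7A11 at the membrane, was at 211, 200.1 and 204 CPM in WT and at 254, 242 and 293 CPM in MUL1(−/−). The groups did not overlap, and the log2 fold change was 0.36 (SE 0.08, adjusted p = 0.00139). Its bins were not uniform, as 41 of the 57 measured were higher and 16 lower, down to -1.33. SLC7A11 (xCT), the cystine importer, was at 23.3, 24.8 and 17.99 CPM against 12.4, 16.8 and 21.2 CPM. The MUL1(−/−) libraries were widely spread and replicate 3 reached into the WT range. Its log2 fold change of -0.39 (SE 0.16) did not pass (adjusted p = 0.061), and it passed without WT replicate 3 (-0.52, adjusted p = 0.016) or without MUL1(−/−) replicate 3 (-0.60, adjusted p = 0.00207), on its most counted bin (-0.42, adjusted p = 0.0259) and with no filter on low counts (0.0029). With DESeq2 the adjusted p of SLC7A11 was 0.328. Bins shared with SLC7A11-AS1 on the other strand held 65.1% of its counts, and outside them the log2 fold change was -0.30 (adjusted p = 0.205).

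SLC7A3 (chromosome X, 70925582 to 70931125) and SLC7A1 both encode importers of arginine and lysine. SLC7A3 had 178, 218 and 131 counts in WT and 7, 1 and 0 counts in MUL1(−/−), or 1.41, 1.55 and 1.05 CPM against 0.0557, 0.00804 and 0.00. It was a low gene in WT and at or under a floor of 3 counts in MUL1(−/−) replicates 2 and 3, so the fitted log2 fold change of -5.90 (SE 0.44, adjusted p = 1.24e-07) gives a direction with an uncertain size. SLC7A1 was at 91.5 ± 9.71 CPM in WT and 100.1 ± 2.24 CPM in MUL1(−/−), its groups overlapped, and the log2 fold change was 0.13 (SE 0.08, adjusted p = 0.221). SLC7A1 was at 0.04 without WT replicate 3, and with library totals it passed (0.20, adjusted p = 0.0436).

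Glycine and the small neutral amino acids are carried by 4 further members. SLC6A9 (GlyT1), a glycine transporter, was at 18.5, 16.7 and 11.9 CPM in WT and at 22.2, 21.3 and 25.5 CPM in MUL1(−/−). Its groups were separate, and it rose by 0.55 on the log2 scale (SE 0.13, adjusted p = 0.00374), or by 0.38 without WT replicate 3. SLC1A4 (ASCT1), which exchanges alanine, serine and cysteine, was at 9.35, 9.29 and 7.58 CPM against 10.8, 11 and 10.5 CPM. It did not overlap, and the log2 fold change was 0.30 (SE 0.10, adjusted p = 0.0311), but did not pass without WT replicate 3 (0.21, adjusted p = 0.109), WT replicate 2 (0.0522), MUL1(−/−) replicate 1 (0.067) or MUL1(−/−) replicate 2 (0.0728). SLC1A5 (ASCT2), the glutamine exchanger, was at 264 ± 40.5 CPM in WT and 295 ± 14.8 CPM in MUL1(−/−). Its groups overlapped, and the log2 fold change was 0.16 (SE 0.09, adjusted p = 0.213), or 0.03 without WT replicate 3 (adjusted p = 0.756). The 20 neighbours of SLC1A5 had a median of 0.45, above its own value.

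SLC38A2 (SNAT2), the sodium-coupled importer induced by amino acid shortage, was at 208, 204 and 196 CPM in WT and at 149, 169 and 189 CPM in MUL1(−/−). MUL1(−/−) replicate 3 was close to the WT libraries without reaching them, and the log2 fold change was -0.26 (SE 0.08, adjusted p = 0.0187). The call was lost without WT replicate 1 (adjusted p = 0.0635), WT replicate 2 (0.0564), MUL1(−/−) replicate 1 (-0.16, adjusted p = 0.138) or MUL1(−/−) replicate 2 (0.071), and with library totals (0.0584).

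Genes that charge and export tRNA were divided. AARS1, alanyl-tRNA synthetase, was at 324, 312 and 231.4 CPM in WT and at 222, 230.7 and 212 CPM in MUL1(−/−). WT replicate 3 was just above the highest MUL1(−/−) library, and the log2 fold change was -0.39 (SE 0.10, adjusted p = 0.00706), or -0.53 without that library. All 31 measured bins of AARS1 were lower.

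EPRS1, the fused glutamyl- and prolyl-tRNA synthetase, was at 375, 348 and 316 CPM against 265, 290.5 and 309 CPM. The groups were narrowly separate, and the log2 fold change was -0.27 (SE 0.08, adjusted p = 0.0142). EPRS1 did not pass without WT replicate 1 (adjusted p = 0.0765), MUL1(−/−) replicate 1 (0.10) or MUL1(−/−) replicate 2 (0.0502), nor on its most counted bin (0.0817). The median of its 20 neighbours was -0.13.

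XPOT, which exports tRNA from the nucleus, was at 378, 365 and 308 CPM in WT and at 279, 309.5 and 304 CPM in MUL1(−/−). WT replicate 3 lay inside the MUL1(−/−) range, and the log2 fold change was -0.24 (SE 0.08, adjusted p = 0.0298). It did not pass with DESeq2 (adjusted p = 0.0612), on library totals (0.0861), on its most counted bin (-0.12, adjusted p = 0.269), or without WT replicate 1 (0.134), WT replicate 2 (0.11), MUL1(−/−) replicate 1 (0.157) or MUL1(−/−) replicate 2 (0.0548). The 20 neighbours of XPOT had a median of -0.20, near its own value.

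CARS1, cysteinyl-tRNA synthetase, went the other way, from 66.4, 62.8 and 50.0 CPM in WT to 73.0, 69.2 and 71.5 CPM in MUL1(−/−). The groups were separate and the log2 fold change was 0.25 (SE 0.09, adjusted p = 0.040). That call was lost without WT replicate 3 (0.14, adjusted p = 0.153), WT replicate 2 (0.061) or any 1 MUL1(−/−) replicate (0.101, 0.054 and 0.0534), and on the most counted bin (0.0853).

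GARS1 and WARS1, the glycyl- and tryptophanyl-tRNA synthetases, did not pass. GARS1 was at 152 ± 15.5 CPM in WT and 154 ± 10.8 CPM in MUL1(−/−), and the log2 fold change was 0.02 (SE 0.08, adjusted p = 0.890), or -0.07 without WT replicate 3. WARS1 was at 234 ± 8.93 and 234 ± 4.53 CPM, and the log2 fold change was 0.00 (SE 0.06, adjusted p = 0.974), or -0.02 without WT replicate 3.

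A further 105 genes of this pathway and of related ones, in 7 lists, were read as context, and 104 of them were tested (SLC6A14 was not). Of these, 18 were higher and 20 lower in MUL1(−/−) at an adjusted p under 0.05, beside a background of 18.8% and 18.7%. Without WT replicate 3 these counts were 25 higher and 22 lower, and with library totals 26 and 15. Their median log2 fold change was -0.01, as over all genes tested.

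The serine, proline and one-carbon enzymes had 0 higher and 5 lower of 10. PYCR1, which makes proline in mitochondria, was at 117, 112 and 89.3 CPM in WT and at 0.652, 0.506 and 0.430 CPM in MUL1(−/−). It was nearly lost from all 3 MUL1(−/−) libraries, and the log2 fold change was -7.64 (SE 0.15, adjusted p = 3.97e-14). PCK2, the mitochondrial phosphoenolpyruvate carboxykinase, was at 44.8, 39.8 and 29.4 CPM against 18.03, 19.6 and 14.7 CPM. Its groups were separate, and the log2 fold change was -1.12 (SE 0.13, adjusted p = 1.21e-05). PSPH, the last enzyme of serine synthesis, had the highest value of that list, 0.11, and did not pass.

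Among 10 further partners and targets of ATF4 and CHOP, 3 were higher and 1 lower. FGF21, a secreted stress hormone, was at 0.142, 0.164 and 0.0639 CPM in WT and at 0.334, 0.354 and 0.349 CPM in MUL1(−/−). It was a very low gene in both but did not overlap, and the log2 fold change was 1.47 (SE 0.33, adjusted p = 0.00246). Of the secreted factors named above, GDF15 and STC2 fell while FGF21 rose. DDIT4, an inhibitor of mTORC1, was the lowest of these at -0.76 (adjusted p = 4.08e-05).

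**Figure D5:**
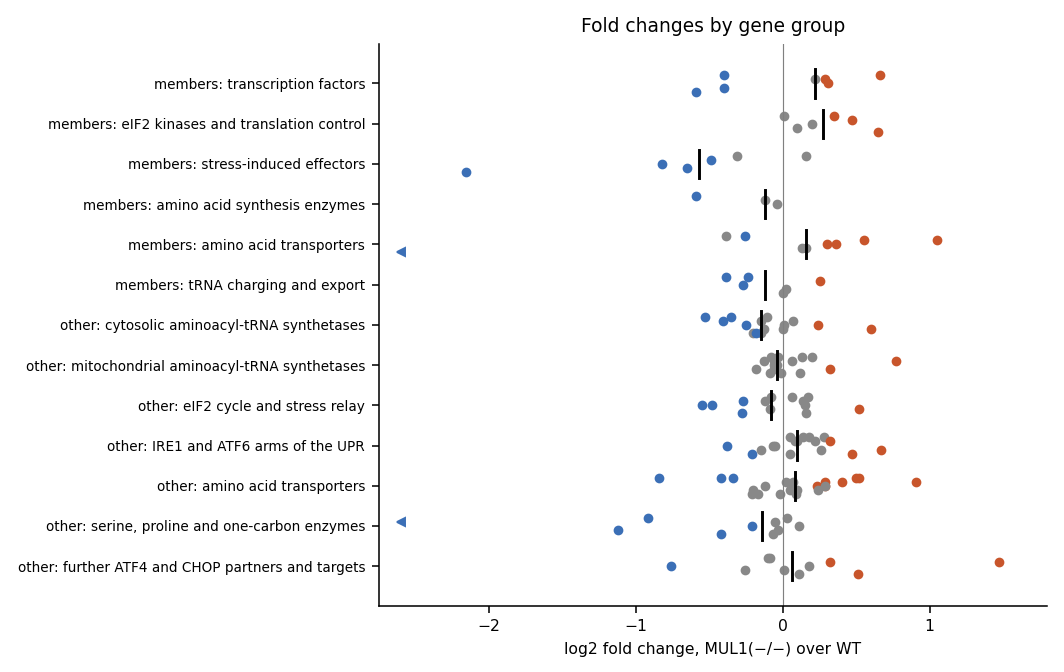
The log2 fold change of MUL1(−/−) over WT (x axis) of each gene, by role for the 37 genes (rows named members) and by list for 104 further genes (rows named other); black bars are medians, orange and blue points passed an adjusted p under 0.05 and grey ones did not. Triangles at the left edge are SLC7A3 (-5.90) and PYCR1 (-7.64); the effectors have the lowest median, -0.57, and the other medians lie between -0.15 and 0.27.

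The remaining lists moved in both directions or little. Of 15 other cytosolic aminoacyl-tRNA synthetases, 2 were higher and 5 lower, from QARS1 at -0.53 (adjusted p = 5.8e-05) to FARSA at 0.60 (5.24e-06). Of 17 mitochondrial ones, 2 were higher and 0 lower, from EARS2 at -0.18, which did not pass, to CARS2 at 0.77 (5.65e-07). In the eIF2 cycle and its stress relay, 1 was higher and 4 lower of 13. Its ends were EIF2S2, another eIF2 subunit, at -0.55 (1.57e-05) and EIF2B5, of the exchange factor eIF2B, at 0.52 (1.89e-05). The IRE1 and ATF6 arms of the unfolded protein response, which run beside the PERK arm, had 3 higher and 2 lower of 17, from PDIA4 at -0.38 (0.00406) to DNAJB11 at 0.67 (1.98e-04). In both of these genes WT replicate 3 was the highest WT library. PDIA4 was at 228, 216 and 288 CPM in WT against 192, 189 and 181 CPM in MUL1(−/−). DNAJB11 was at 39.7, 39.9 and 54.5 CPM against 68.9, 66.6 and 77.3 CPM. The 22 tested of 23 other amino acid transporters had 7 higher and 3 lower, from SLC38A3 at -0.84 (1.63e-04) to SLC1A2 at 0.91 (0.00488).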

How the data were processed

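For every library the authors deposited a table of unnormalized counts of reads in exon bins. Per the labels, RNA was extracted with an RNeasy mini plus kit and libraries were made with a SMARTER mRNA-Seq kit. The submitters' processing notes name Trimmomatic 0.36, STAR 2.5.2b and GRCh38, and the counting program is not given in the sources used here. Strand was not used, since bins lying on both strands held near-equal counts (median ratio 1 over 11 pairs).

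Bins were summed per gene, after the tables proved to hold bins rather than genes. Bins under joined identifiers went to the gene whose GENCODE 29 exons touched them, and those touched by several or none of the joined genes (15949, 4.93% of counts) were left out. Bins under 1 identifier stayed with it even where exons of a gene outside that identifier, often on the other strand, overlapped them, and the report calls these shared. Counts were tested with edgeR 4.0.16 (R 4.3.3; TMM factors 0.946 to 1.03, filterByExpr, quasi-likelihood test, Benjamini-Hochberg over 25118 genes). DESeq2 1.42.0 and limma 3.58.1 (voom) served as alternatives. In counts simulated for the MUL1(−/−) against WT comparison over 24596 genes, edgeR recovered 199 of 200 genes changed by a log2 fold change of 1, with 13 false calls. The changed genes were drawn from those with a mean above 1 CPM. Changes in lower genes, smaller changes, as in most genes that passed here, and an outlying library were not simulated, so their effect on recovery is not known. A floor of 3 counts covers counting error only and equals 0.0213 to 0.0244 CPM.

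The genes and lists were chosen with earlier results of these data known. All 37 genes were named, and of the other lists every gene past an adjusted p of 0.05 and an absolute log2 fold change of 1, otherwise the highest and lowest of each list. Neighbours were the 10 tested genes on each side. Promoter sequences were from RefSeq.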

Additional observations from a re-analysis of the deposited data

How the results depend on the processing

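Across 15 alternative fits of 37 genes (555 fits), 491 kept their direction and side of the threshold, 35 lost it, 20 gained it and 9 changed sign, values that round to 0.00 being given no sign. All 24 genes that passed kept their sign in these fits, and 17 (7 higher, 10 lower) passed in each. With 1 library left out, 7 to 12 genes were higher and 10 to 15 lower. The count of 7 came without WT replicate 2. Past a log2 fold change of 1, 0 to 1 were higher and 2 lower. In these fits the sign changed only in genes that did not pass. With 1 library left out, EIF2AK1 ran from -0.02 to 0.04, GARS1 from -0.07 to 0.08 and CBS from -0.13 to 0.05, and WARS1, at 0.00 with all libraries, from -0.02 to 0.03. CBS was 0.03 with library totals. On the most counted bin CTH was 0.10 and CBS 0.03. Less the median of 20 neighbouring genes, ATF3 was -0.31, ATF5 -0.06 and EIF4EBP1 -0.15. The causes were not tested. The share of promoters with TGATG alone was 46.9% of the 32 genes, against 37.7% of all genes.

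Replicate numbers were not taken as pairs in the main fit, because the paper names no such pairing in its comparison of the 2 groups. Same-numbered libraries deviated together with r of -0.0682, 0.178 and 0.111 over 15872 genes. The mean r was 0.0735, against -0.0331 for libraries of the 2 genotypes with different numbers. With the replicate block 12 genes were higher and 13 lower (20 and 18 in the other lists), 1 higher and 2 lower past a log2 fold change of 1, MUL1 was at 0.14 and TRIB3 passed (0.22, adjusted p = 0.0421). Depth limits SLC7A3, whose MUL1(−/−) counts were 7 or fewer.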
